A study of Mus musculus with 9 samples.

Results

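Il10 and 6 genes of the transcription factor that its receptor activates were followed across untreated, lipopolysaccharide-treated and inhibitor-treated mouse macrophages: Il10, Stat3, Socs3, Bcl3, Sbno2, Etv3 and Nfil3. They are 7 of the 12204 genes in the table, and all 7 were listed and passed the filter on low values. They were chosen by name with results of these samples already known, so their levels below are a description without a test of their own. Interleukin-10 is the main cytokine by which macrophages limit their own inflammatory output. It binds a receptor of IL10RA and IL10RB chains, whose kinases JAK1 and TYK2 phosphorylate STAT3. STAT3 dimers then drive genes that hold back inflammatory transcription, and several of these encode transcriptional repressors.

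The macrophages were grown from bone marrow of C57/Bl6J mice for 6 days in medium with 20% supernatant of L929 cells, a fibroblast line that secretes macrophage colony-stimulating factor. The untreated group (UT) received neither agent. The LPS group received 10 ng/ml lipopolysaccharide, the bacterial cell wall component sensed by Toll-like receptor 4, for 4 h. The LPS + BMS group received 50 µM BMS303141, an inhibitor of the acetyl-CoA-producing enzyme ATP-citrate lyase, 1 h before the same LPS treatment. Each group had 3 libraries of messenger RNA 3′ ends. Among the 9 libraries none received the inhibitor alone, and the labels name no vehicle. The labels do not say whether replicates are separate mice or cultures, so the p-values below cover only how far these libraries scatter, and that scatter may be technical.

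The value steps of the table correspond to about 1.82 to 4.98 M (mega) reads per library on the listed genes. The library labelled LPS replicate 1 was the shallowest and stood apart on the second principal component, which held 9.44% of the variance. All 8 macrophage markers on the list were present, Lyz2 (lysozyme) having the highest values, which are not corrected for length, at a mean of 12.28 log2 CPM untreated and 11.29 with LPS. Of the markers of other cells, those listed were S100a8 and S100a9 of 9 for neutrophils, 1 of 6 for dendritic cells, 1 of 6 for T and natural killer cells, 1 of 5 for mast cells, 4 of 6 for stromal cells, and none of 4 for B cells and 5 for erythroid cells. The summed level of the 2 neutrophil markers was 7.81 to 29.6 CPM in UT, 33.9 to 60.9 in LPS and 172 to 264 in LPS + BMS, in the same order as Il10, and its part in the results was not tested. That sum was carried by S100a8, with means of 3.30, 5.46 and 7.75 log2 CPM, while S100a9 had 0.82, 0.39 and 0.87. In the same 3 groups Hdc, the mast cell marker listed, lay at 2.21 to 2.59, 106 to 118 and 60.5 to 77.2 CPM, Itgax, the dendritic cell marker, at 3.05 to 4.19, 13.5 to 22.5 and 4.77 to 5.36 CPM, and the summed stromal markers at 6.09 to 14.0, 13.7 to 23.7 and 6.19 to 13.5 CPM. In these bulk samples, fewer cells of a type and less RNA per cell cannot be told apart.

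The promoters of Socs3, Bcl3 and Sbno2 are shown because they hold the binding motifs of STAT factors or NF-kB, the factors that the IL-10 receptor and Toll-like receptor 4 switch on. The sequences are from RefSeq (GRCm38.p6), which gave 8 windows for 6 of the 7 genes, each running from 250 bases before to 50 bases after a gene start. Each is written 5′ to 3′ along the gene, in lower case with the motif matches in capitals. The Socs3 window, chr11:117969317-117969616 on the minus strand, holds TTCNNNGAA at position -154, counted from the RefSeq gene start. This window and those of Sbno2 lie wholly inside the gene intervals given below, which are from GENCODE and start further upstream. The second Sbno2 window, chr10:80101138-80101437 on the minus strand, holds the stricter TTCCNGGAA at position -24. The Bcl3 window, chr7:19822706-19823005 on the minus strand, holds the NF-kB consensus at position 3.
Socs3: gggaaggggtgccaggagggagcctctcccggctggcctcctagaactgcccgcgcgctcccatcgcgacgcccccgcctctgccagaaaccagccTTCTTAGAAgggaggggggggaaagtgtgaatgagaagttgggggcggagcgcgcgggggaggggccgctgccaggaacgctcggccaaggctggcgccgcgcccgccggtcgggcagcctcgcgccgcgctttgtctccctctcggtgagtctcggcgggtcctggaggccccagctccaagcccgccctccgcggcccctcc
Sbno2: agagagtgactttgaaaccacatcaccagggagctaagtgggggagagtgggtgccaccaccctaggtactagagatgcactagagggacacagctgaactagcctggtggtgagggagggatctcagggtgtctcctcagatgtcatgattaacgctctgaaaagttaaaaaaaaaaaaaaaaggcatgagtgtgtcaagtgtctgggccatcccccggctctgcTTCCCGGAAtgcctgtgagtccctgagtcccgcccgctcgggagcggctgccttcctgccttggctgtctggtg
Bcl3: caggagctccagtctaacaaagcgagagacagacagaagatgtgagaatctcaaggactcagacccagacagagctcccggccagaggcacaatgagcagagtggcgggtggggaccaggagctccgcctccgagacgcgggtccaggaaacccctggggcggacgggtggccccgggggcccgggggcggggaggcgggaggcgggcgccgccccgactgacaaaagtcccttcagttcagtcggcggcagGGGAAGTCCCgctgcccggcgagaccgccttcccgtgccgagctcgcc

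Across the 8 windows, searched on both strands, 3 held TTCNNNGAA, namely those of Socs3 and 2 of the 3 Sbno2 starts, and 2 held the NF-kB consensus, those of Bcl3 and the remaining Sbno2 start. Among all 32851 mouse promoter windows of the same length, 8.30% held TTCNNNGAA, 1.15% held TTCCNGGAA (every such match is also a TTCNNNGAA match) and 8.46% held the NF-kB consensus. None of the 8 windows held TGACGTCA, the cyclic AMP response element (1.79% of all windows), TGANTCA, the AP-1 motif (7.81%), or TTANGTAA, the motif of NFIL3 (2.32%). The Stat3, Etv3 and Nfil3 windows matched none of the 6 motifs. Counted by gene, since Sbno2 alone has 3 windows, 2 of the 6 genes held TTCNNNGAA and 2 the NF-kB consensus. Among all genes, 9.55% held TTCNNNGAA and 9.55% the NF-kB consensus in at least 1 window. A match is a description of the letters and not a site shown to be bound.

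Il10 (ENSMUSG00000016529, chr1:131019845-131024974, plus strand, GRCm38) had 3 separate levels. Its level in log2 CPM (read counts scaled to a common library total, on a log2 scale, normalised by the authors) was 0.02, 0.85 and 1.82 in the UT libraries. It was 4.91, 4.71 and 4.90 in the LPS libraries and 6.32, 6.40 and 6.38 in the LPS + BMS libraries. The groups did not overlap: every LPS library lay above every untreated one, and every library with the inhibitor lay above every LPS library. Means were 0.90 ± 0.90, 4.84 ± 0.11 and 6.37 ± 0.04 (SD, n = 3 each). The untreated values rest on few reads, 6, 8 and 12 value steps above the lowest value of their library, so the LPS difference is less certain in size than the later one. LPS against UT came to 3.94 (SE 0.33), and LPS + BMS against LPS to 1.53 (SE 0.33, 95% interval 0.81 to 2.24), a 2.88-fold difference. Leaving out each library in turn kept the latter between 1.46 and 1.56.

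Stat3 (ENSMUSG00000004040, chr11:100885098-100939540, minus strand), the transcription factor itself, read 6.19, 6.05 and 5.90 log2 CPM untreated. With LPS it read 6.54, 7.58 and 7.46, and with the inhibitor 7.67, 7.72 and 7.78. LPS replicate 1 lay below both its companions and nearer to the untreated libraries, and the group means were 6.05 ± 0.14, 7.19 ± 0.57 and 7.73 ± 0.05 (SD, n = 3). The LPS difference was 1.14 (SE 0.21), and 1.47 without LPS replicate 1. The inhibitor difference was 0.53 (SE 0.21, 95% interval 0.08 to 0.99) and was 0.21 without LPS replicate 1. The 3′ ends of Stat3 and of Stat5a, on the opposite strand, overlap by 72 bases in the annotation, and the strand setting of the counting is not given in the sources used here. Stat5a, which read 3.41, 3.06 and 3.56 untreated, 5.25, 6.07 and 5.96 with LPS and 5.54, 6.06 and 5.62 with the inhibitor, was also lowest of its LPS group in replicate 1. If strand was not used in the counting, reads from the overlap could not be assigned to 1 of the pair, and Stat3 values are uncertain to that degree.

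Socs3 (ENSMUSG00000053113, chr11:117966079-117970047, minus strand) encodes an inhibitor that binds JAK kinases and the gp130 receptor chain and damps IL-6 signalling more than IL-10 signalling. It was near the lowest values untreated, at -0.51, -0.30 and -0.30 log2 CPM, 4, 3 and 2 value steps above the lowest value of those libraries. It reached 6.84, 7.45 and 7.24 with LPS and 7.61, 7.77 and 7.32 with the inhibitor. The LPS libraries lay far above the untreated ones, while LPS and LPS + BMS overlapped. The LPS difference of 7.55 (SE 0.19) was the largest of the 7 genes. The inhibitor difference was 0.39 (SE 0.19, 95% interval -0.02 to 0.79) and 0.22 without LPS replicate 1.

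Bcl3 (ENSMUSG00000053175, chr7:19808462-19822770, minus strand) encodes a nuclear IkB protein that holds p50 homodimers on NF-kB sites. It read 4.49, 4.91 and 5.07 untreated, 7.99, 8.17 and 8.27 with LPS, and 8.49, 8.42 and 8.35 with the inhibitor, again 3 groups without overlap, although the last pair lay close together. LPS against UT was 3.32 (SE 0.14), a 10.0-fold difference. The inhibitor difference was 0.28 (SE 0.14, 95% interval -0.03 to 0.59).

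Sbno2 (ENSMUSG00000035673, chr10:80056992-80105571, minus strand), a helicase-like protein that acts as a co-repressor downstream of IL-10, read 5.72, 6.12 and 6.44 untreated. It read 7.27, 7.38 and 7.30 with LPS and 7.70, 7.60 and 7.73 with the inhibitor, and no group overlapped another. The LPS difference was 1.22 (SE 0.15) and the inhibitor difference 0.36 (SE 0.15, 95% interval 0.04 to 0.69). Leaving out each library in turn kept the latter between 0.34 and 0.40.

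Etv3 (ENSMUSG00000003382, chr3:87525407-87540156, plus strand), an ETS family repressor known from IL-10-treated macrophages, read 5.89, 6.29 and 6.08 untreated, 5.75, 5.99 and 5.74 with LPS, and 5.70, 5.89 and 5.98 with the inhibitor. All 3 groups overlapped. Its differences were -0.26 (SE 0.14, 95% interval -0.57 to 0.05) for LPS and 0.03 (SE 0.14, 95% interval -0.28 to 0.34) for the inhibitor. The first depended on the setting. It was 0.03 with centring on ribosomal protein genes and -0.39 (SE 0.12) with weights per library. Under those weights Etv3 was called lower against UT with LPS and with LPS + BMS. The second changed sign in 4 of 18 alternatives, and fits without a single library gave -0.03 to 0.11.

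Nfil3 (ENSMUSG00000056749, chr13:52967209-52981073, minus strand), a bZIP repressor that in macrophages acts on the Il12b enhancer, read 1.98, 1.37 and 1.82 untreated. It read 5.32, 5.15 and 4.70 with LPS and 4.53, 4.86 and 4.72 with the inhibitor, so the treated groups lay well above the untreated one and overlapped each other. The LPS difference was 3.33 (SE 0.22). The inhibitor difference was -0.35 (SE 0.22, 95% interval -0.84 to 0.13), the only one below 0 among the 7 in the main fit. Across fits without a single library it ranged from -0.53 without LPS replicate 3 to -0.22 without LPS replicate 1.

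**Figure D1:**
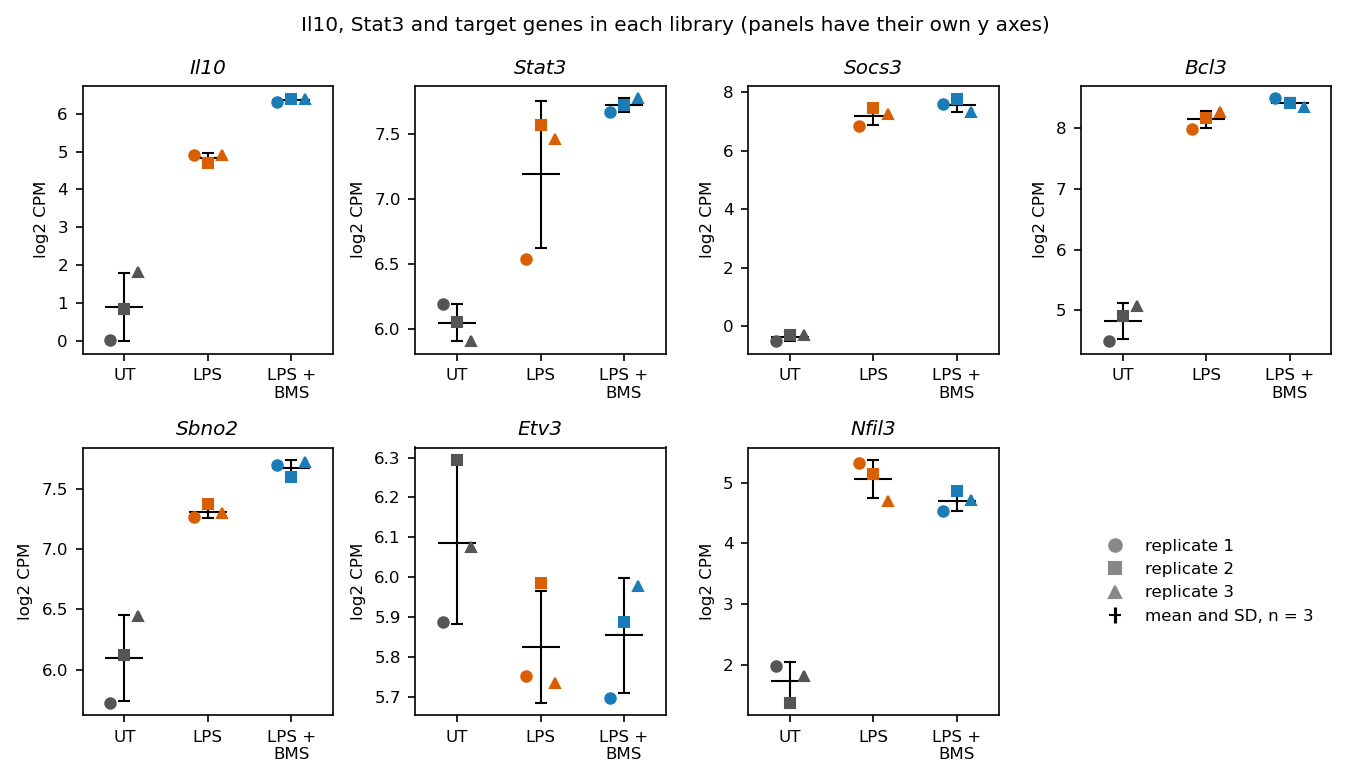
Level of each gene in log2 CPM (y axis, its own range in each panel) in the 3 libraries of each group (points), with the mean and SD (bars). Il10 shows 3 separate levels, at means of 0.90, 4.84 and 6.37, while the means of Etv3 lie between 5.83 and 6.09.

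A gene was called when limma's adjusted p over the 12196 genes tested was under 0.05. LPS against UT called 6 of the 7 genes higher, all but Etv3, where 21.5% of all tested genes were called higher and 25.4% lower. In the same comparison 6 of 7 were higher with no overlap, against 23.7% of all genes. LPS + BMS against LPS called 1 of the 7, Il10, against 0.959% of all genes called higher and 1.16% called lower, and 4 of 7 (Il10, Stat3, Bcl3 and Sbno2) were higher without overlap, against 10.1% of all genes. Since these comparisons served to choose the genes, nothing is read from the counts. The median difference of the 7 was 3.32 for LPS and 0.36 for the inhibitor, where all tested genes had medians of -0.06 and -0.00. The Il10 call with the inhibitor held in 12 of 18 alternatives. It was lost when LPS replicate 2, LPS replicate 3 or any LPS + BMS library was left out, and with no mean trend. The SE of 0.33 for that difference pools the spread of all 3 groups, of which UT had the widest for Il10. In a fit of only the groups compared the SE was 0.13.

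LPS + BMS against UT, which shares its libraries with the other comparisons, called 6 of 7 higher, with 21.5% of all tested genes called higher and 25.6% lower. Its differences, beside those of LPS against UT, were 5.47 and 3.94 for Il10, 1.68 and 1.14 for Stat3, 7.94 and 7.55 for Socs3, 3.60 and 3.32 for Bcl3, 1.58 and 1.22 for Sbno2, -0.23 and -0.26 for Etv3, and 2.98 and 3.33 for Nfil3. Only Nfil3 had the smaller difference from UT with the inhibitor among the 6 genes above UT.

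**Figure D2:**
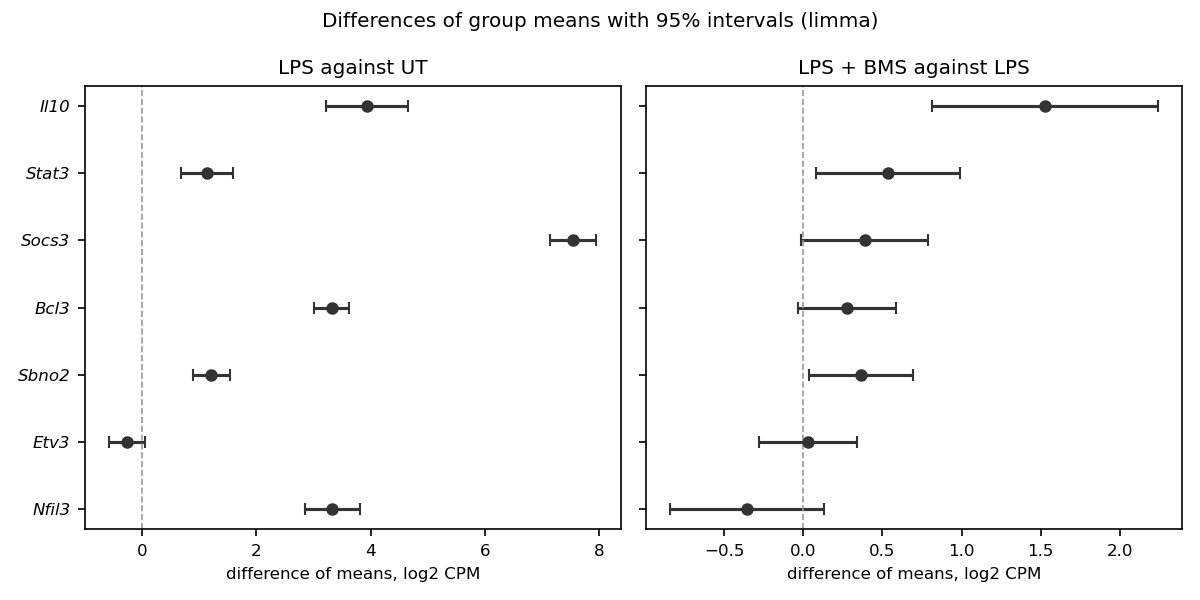
Difference of group means in log2 CPM (x axis, its own range in each panel) for the 7 genes, with 95% intervals from limma. With LPS, 6 intervals lie above 0. With the inhibitor those of Il10, Stat3 and Sbno2 lie above 0, Il10 at 1.53 and the other two under 0.6.

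Profiles over the 9 libraries were compared by the root mean square difference of log2 values after each gene's own mean was subtracted, a distance that is 0 for identical profiles. Among pairs of the 7 genes, Stat3 and Sbno2 were nearest at 0.35, followed by Bcl3 and Nfil3 at 0.45, and Socs3 and Etv3 were farthest apart at 3.77. Il10 was nearest to Bcl3, at 0.84. Among 10131 genes compared, the profiles nearest to Il10 were those of Gja1 at 0.35, Lox at 0.40, Dnmt3l at 0.44, Mmp3 at 0.53 and Dgat2 at 0.56. Gja1, a gap junction protein, had means of 0.53, 4.74 and 5.75 log2 CPM in UT, LPS and LPS + BMS, and Lox, the collagen cross-linking enzyme, had 1.60, 5.67 and 6.77. Dnmt3l, Mmp3 and Dgat2 had untreated means below 0, and the distances of low genes rest on few reads.

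The nearest profiles to the other 6 genes were Ppp1r2 (0.13) and Asb6 (0.15) for Stat3, U90926 (0.30) and Cxcl3 (0.34) for Socs3, Zdhhc2 (0.16) and Il20rb (0.17) for Bcl3, Ago3 (0.11) and Noct (0.13) for Sbno2, Ubtf (0.08) and Cndp2 (0.09) for Etv3, and Sept11 (0.25) and Tnfrsf1b (0.26) for Nfil3. Ppp1r2 read 3.92, 5.11 and 5.02 in the LPS libraries, and Asb6 2.91, 3.88 and 3.68, both lowest in LPS replicate 1 like Stat3. That library counts in the distance by which both were picked, so the shared low value is not a separate observation.

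**Figure D3:**
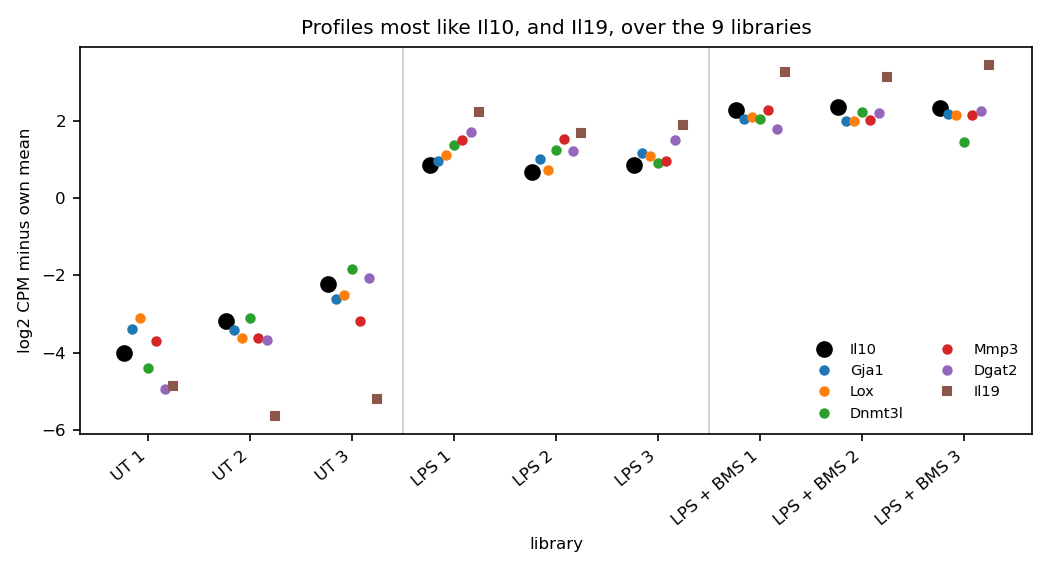
Level in each library relative to the gene's own mean (y axis, log2 CPM) for Il10, its 5 nearest profiles and its chromosomal neighbour Il19, with vertical lines between the groups. The untreated libraries lie below the LPS libraries, and the LPS + BMS libraries highest.

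Il10 sits in a cytokine cluster on chromosome 1, and 3 listed neighbours lie within 100 kb. Il19, an IL-10 family cytokine on the opposite strand 79730 bases away, read -1.97, -2.77 and -2.33 untreated, 5.12, 4.58 and 4.79 with LPS, and 6.17, 6.02 and 6.35 with the inhibitor. Its untreated values were at or 1 step above the lowest value of their library, so no fold is given for LPS. With the inhibitor it rose by 1.35 (SE 0.27, limma adjusted p = 0.0179), in all 3 libraries above all 3 LPS libraries. The call was lost when LPS replicate 2, LPS replicate 3 or any LPS + BMS library was left out, with adjusted p up to 0.133. Mapkapk2, 28726 bases from Il10 and the kinase that stabilises AU-rich cytokine messages, rose with LPS from a mean of 7.66 to 10.14 and stood at 10.09 with the inhibitor, a difference of -0.05 (SE 0.11, limma adjusted p = 0.872). Gm37084, an uncharacterised transcript on the same strand inside the Mapkapk2 interval, whose reads may be shared with that gene, rose with LPS from a mean of 4.09 to 6.11 and stood at 6.25 with the inhibitor (limma adjusted p = 0.750). Acly, the gene of the inhibited enzyme, 357098 bases from Stat3, had means of 5.41 ± 0.04, 5.16 ± 0.07 and 5.07 ± 0.16 (SD, n = 3), and passed the test in neither comparison. The inhibitor acts on the enzyme and not on this message, so its level does not check the labels.

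Among the ligands of the IL-10 family and of other STAT3-activating receptors, 8 were listed of 18. Of the 7 besides Il10, 6 rose with LPS and 1 fell, with a median difference of 7.12. Il6, the inflammatory STAT3-activating cytokine, read -0.79, -1.58 and -0.30 untreated and 7.10, 7.97 and 7.50 with LPS. Hgf, hepatocyte growth factor, was the gene that fell, from 4.39 to 1.77 (limma adjusted p = 3.22e-05, named after its values were seen). With the inhibitor 1 of 7 rose, Il19, and 1 fell, Il6, to 5.91, 6.36 and 5.16. The Il6 difference was -1.71 (SE 0.35, limma adjusted p = 0.0217). Its call was lost without LPS replicate 2 or 3, without LPS + BMS replicate 1 or 3, with the replicate number as a block and with no mean trend. Osm, Il27, Ebi3 and Csf3 rose with LPS and did not pass the test with the inhibitor. At an unadjusted p under 0.05, 1 of the 7 was higher and 2 were lower with the inhibitor. Il27, lower beside Il6, was at -1.37 (SE 0.34, limma adjusted p = 0.0540, named after its values were seen). Every LPS + BMS library of Il27 lay below every LPS library.

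The receptor genes of IL-10 itself did not pass the test in either comparison. Il10ra, the ligand-binding chain, had means of 5.30, 5.63 and 5.05 in UT, LPS and LPS + BMS (limma adjusted p = 0.108 and 0.0908), and Il10rb, the shared chain, 5.70, 5.59 and 5.97. Of 13 receptor chains tested, 6 rose and 5 fell with LPS, with a median of 0.33. The smallest p-values belonged to Met, the receptor of hepatocyte growth factor, which rose from near the lowest values to a mean of 4.53, and to Il20rb, a chain of the receptors that bind IL-19, which rose from -0.36 to 3.28. With the inhibitor 1 of 13 rose and none fell by limma, while at an unadjusted p under 0.05 there were 3 higher and 1 lower. The lower one was Il10ra, at -0.58 (SE 0.16), with every LPS + BMS library below every LPS library. The gene that rose was Il6ra, the IL-6 binding chain, which read 3.35, 3.41 and 3.68 with LPS and 4.92, 4.50 and 4.73 with LPS + BMS, against 5.48, 5.55 and 5.45 untreated. The Il6ra difference of 1.23 (SE 0.17, limma adjusted p = 0.00226) kept its call without any single library. Il6st, which encodes the gp130 chain, fell with LPS from 5.84 to 4.53 and stood at 4.83 with the inhibitor (adjusted p = 0.466 from limma).

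Of the 9 JAK kinases and STAT factors besides Stat3, 6 rose and 1 fell with LPS. Jak2, a kinase of several cytokine receptors, had the smallest p and rose from 5.07, 5.09 and 5.07 to 9.20, 9.31 and 9.34, a difference of 4.21 (SE 0.10, limma adjusted p = 4.44e-12). Stat6, which carries IL-4 signals, fell by 1.37 (SE 0.11, limma adjusted p = 2.83e-07). Of the kinases that serve the IL-10 receptor, Tyk2 rose from 5.52 to 6.03 and Jak1, at 7.82 and 8.05, did not pass. Their LPS + BMS means were 5.62 and 8.16, and neither passed against LPS (limma adjusted p = 0.143 and 0.655). For Tyk2 every LPS + BMS library lay below every LPS library. With the inhibitor none of the 9 rose and 1 fell by limma, while 1 was higher and 3 lower at an unadjusted p under 0.05. Stat2, an interferon-pathway factor, fell from 6.00, 6.21 and 5.89 to 5.24, 5.28 and 4.99, by 0.86 (SE 0.16, limma adjusted p = 0.0148). That call was lost without LPS replicate 2 or without LPS + BMS replicate 1 or 3, and with no mean trend.

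Of the 19 inhibitors of JAK-STAT signalling besides Socs3, 7 rose, 3 fell and 9 did not pass with LPS. For the whole list of 20, with 8 that rose and 3 that fell, the number that fell was 1 without UT replicate 2, LPS replicate 2 or LPS replicate 3, 2 without UT replicate 1, UT replicate 3 or LPS + BMS replicate 1, 4 without LPS replicate 1, and 5 with weights per library. Centring on ribosomal protein genes gave 11 that rose and 1 that fell. Ptprj, a receptor tyrosine phosphatase, rose from 6.89 to 8.56, and Cish, a SOCS family member induced by STAT5, rose from near the lowest values to a mean of 4.85. Socs1, a SOCS family member that inhibits JAK kinases directly, also rose, to a mean of 5.33 ± 1.81 (SD, n = 3, named after its values were seen). Its LPS libraries thus lay far apart. With the inhibitor limma called none of the 19, and 2 had an unadjusted p under 0.05, 1 in each direction. The median difference of these 19 was -0.09.

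**Figure D4:**
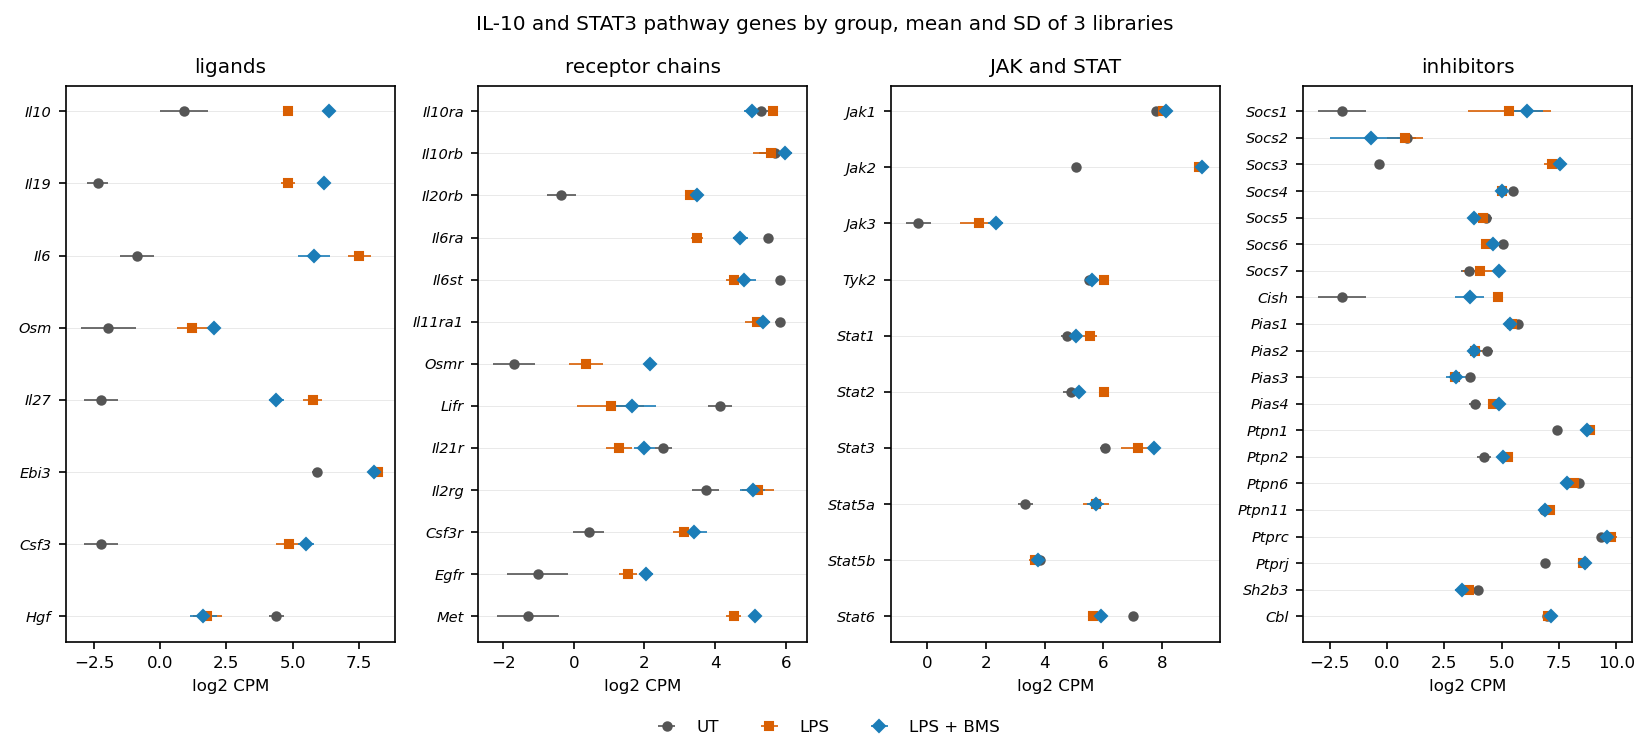
Mean level in log2 CPM (x axis, its own range in each panel) of ligands, receptor chains, JAK and STAT genes and inhibitors in UT, LPS and LPS + BMS, with SD over 3 libraries as bars. Il10 and Il19 lie higher with LPS + BMS than with LPS, and Il6 lower. The means of Il10ra lie between 5.05 and 5.63, and those of Il10rb between 5.59 and 5.97.

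Among the regulators of Il10 transcription 32 were tested. With LPS 12 rose and 8 fell, or 14 and 4 with centring on ribosomal protein genes. Nfkb1, the gene of NF-kB p50, had the smallest p and rose by 2.66 (SE 0.11, limma adjusted p = 2.75e-10). With the inhibitor 3 of 32 fell by limma, while 6 were higher and 4 lower at an unadjusted p under 0.05. The median difference of the 32 was 0.03. Rel, the gene of the NF-kB subunit c-Rel, read 8.46, 8.37 and 8.41 with LPS and 7.60, 7.66 and 7.52 with LPS + BMS, and fell by 0.82 (SE 0.11, limma adjusted p = 0.00173). Nfkb1 and Creb1, the gene of a cyclic AMP-responsive activator, were the other genes called lower, by 0.54 and 0.56 (limma adjusted p = 0.0186 and 0.0298, named after their values were seen). Nfkb1 lost its call without any 1 of the LPS + BMS libraries. Creb1 lost its own without LPS replicate 2 or 3 or any LPS + BMS library. Centring on ribosomal protein genes and dropping the mean trend each ended both calls, and the replicate number as a block ended that of Creb1. Maf, which encodes c-Maf, a direct activator of Il10, fell with LPS from 9.58 to 8.16 and stood at 8.65 with the inhibitor, which did not pass the test.

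Of 7 genes for proteins that act on the stability of Il10 messenger RNA, 3 rose and 3 fell with LPS. Zfp36l1 and Zfp36l2, which encode proteins that bind AU-rich elements and speed decay, fell by 3.75 (SE 0.17) and 4.15 (SE 0.29), at adjusted p of 1.11e-09 and 6.20e-08 in limma. Zfp36, the gene of tristetraprolin, the family member known to destabilise Il10 messenger RNA, rose from 8.61 to 9.59. With the inhibitor 1 of 7 rose and none fell by limma, while 2 were higher and 0 lower at an unadjusted p under 0.05. Zfp36l1 read 8.01, 7.60 and 7.58 untreated, 3.65, 4.14 and 4.17 with LPS, and 6.29, 5.97 and 6.04 with LPS + BMS. Its inhibitor difference of 2.11 (SE 0.17, limma adjusted p = 6.54e-05) held without any single library.

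Among genes known to be raised by IL-10 or STAT3 in myeloid cells, 23 were tested besides Socs3, Bcl3, Sbno2, Etv3 and Nfil3. With LPS 16 rose and 5 fell. Tnfrsf1b, a TNF receptor, rose from 6.85 to 10.26, and Slfn2, a Schlafen family gene, from 8.15 to 11.08. With the inhibitor 4 of 23 rose and none fell by limma, while 8 were higher and 3 lower at an unadjusted p under 0.05. Their median was 0.26, where all tested genes had -0.00. All gene lists here were chosen with earlier results of these data known, so nothing is read from their counts or medians. Of all tested genes limma called 21.5% higher and 25.4% lower with LPS, and 0.959% higher and 1.16% lower with the inhibitor. No such share was taken at an unadjusted p under 0.05. Zfp36, Cebpd, Il21r and Il10ra of this list also stand in the lists above. Across fits without a single library, the number that rose in the whole list of 28 was 2 to 5. Hmox1, heme oxygenase-1, read 7.81, 7.56 and 7.75 with LPS and 9.22, 9.49 and 9.71 with LPS + BMS, a rise of 1.77 (SE 0.14, limma adjusted p = 6.54e-05). Hmox1 is also a classical target of the oxidative stress factor NRF2. Il4ra, the IL-4 receptor chain, read 8.21, 8.18 and 8.35 with LPS and 9.16, 9.08 and 9.17 with LPS + BMS, a rise of 0.89 (SE 0.10, limma adjusted p = 0.000506). The other genes that rose, named after their values were seen, were Il1rn, the IL-1 receptor antagonist, and the repressor gene Bcl6. Il1rn rose by 1.09 (SE 0.21, limma adjusted p = 0.0163) and lost its call without LPS + BMS replicate 1 or 3. Bcl6, which was lower with LPS than in UT by 1.45 (SE 0.14), rose with the inhibitor by 0.80 (SE 0.14, limma adjusted p = 0.00940). It lost the latter call without LPS + BMS replicate 3. Both calls also ended with no mean trend.

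Of 20 genes known to be lowered by IL-10 in LPS-treated macrophages, 19 rose with LPS and none fell, by limma or at an unadjusted p under 0.05, with a median of 7.15. Ccl3, a chemokine, rose from a mean of 3.35 to 10.53, and Ptgs2, cyclooxygenase-2, from 0.26 to 9.66. With the inhibitor 4 of 20 fell and none rose by limma, while 1 was higher and 7 lower at an unadjusted p under 0.05. The median was -0.45, and fits without a single library gave 2 to 6 that fell. As this list too was chosen with earlier results known, nothing is read from its counts or median. Il12b, which encodes the p40 chain common to IL-12 and IL-23, read 9.79, 9.83 and 9.74 with LPS and 7.32, 7.28 and 6.24 with LPS + BMS, and fell by 2.84 (SE 0.37, limma adjusted p = 0.00173). Il18 read 5.69, 5.84 and 5.64 with LPS and 4.24, 4.64 and 4.25 with LPS + BMS, and fell by 1.35 (SE 0.19, limma adjusted p = 0.00304). Both kept their calls without any single library. The other genes that fell were Il6, given above, and Tnf, by 1.11 (SE 0.22, limma adjusted p = 0.0178, named after its values were seen). Tnf lost its call without LPS replicate 2 or 3, without LPS + BMS replicate 1 or 3, and with no mean trend. Among the genes that did not pass, Il1b stood at 12.75 with LPS and 12.65 with the inhibitor, and Ptgs2 at 9.66 and 9.73.

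**Figure D5:**
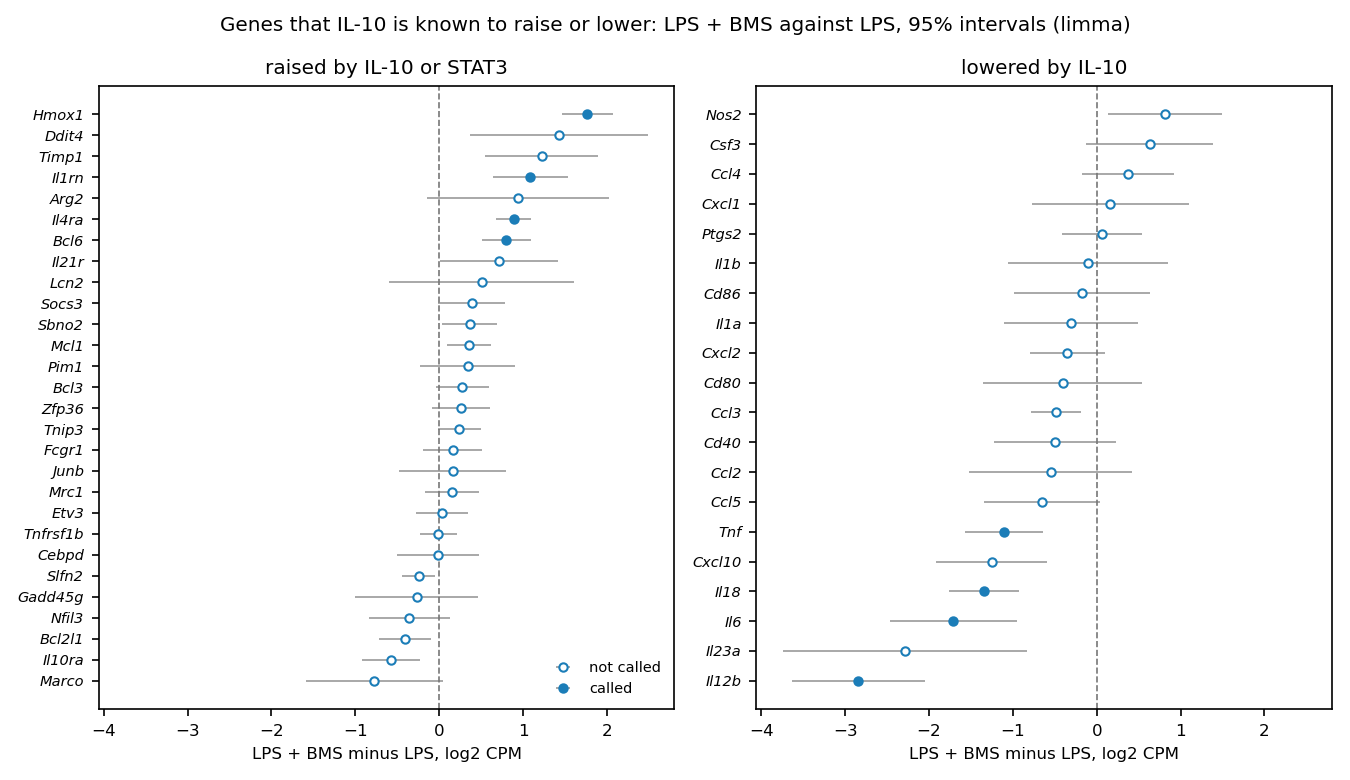
Difference between LPS + BMS and LPS in log2 CPM (x axis) with 95% intervals from limma, for genes known to be raised by IL-10 or STAT3, the 5 target genes included (left), and genes known to be lowered by IL-10 (right). Filled points are called genes: 4 on the left, all above 0, and 4 on the right, all below 0.

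The relatives of the 4 target regulators gave 9 tested genes. With LPS 3 rose and 4 fell. Nfkbiz, a nuclear IkB protein like Bcl3, rose from 5.06 to 8.09, and Tef, a bZIP factor of the PAR family that shares its DNA motif with Nfil3, fell from 6.89 to 4.27. Sbno1, the only paralogue of Sbno2, had means of 7.77, 7.91 and 7.79 and did not pass in either comparison. Erf, the ETS repressor closest to Etv3, fell with LPS from 6.27 to 5.19. With the inhibitor limma called none of the 9, and 2 had an unadjusted p under 0.05.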

How the data were processed

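The 9 libraries were made with the QuantSeq 3′ mRNA forward kit (Lexogen) from 100 ng of total RNA with 16 PCR cycles, per the labels' protocols, so levels are not corrected for transcript length, and no levels were compared between genes except to pick the macrophage marker with the highest values. Limma, edgeR, MultiQC, STAR 2.5.2b, featureCounts 1.5.1 and the build GRCm38 (mm10) appear, without roles, in the submitters' processing notes. The annotation release, strand setting and gene filter are not stated there. What the authors deposited is a score per gene and library on a log2 scale, which the values show to be log2 CPM after quantile normalisation: their powers of 2 sum to 987472 to 987498 in each library. A change shared by most transcripts cannot be seen on this scale. Depth was estimated from value steps 5 to 40 of each library. It is approximate and covers counting error only.

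Of 12204 Ensembl identifiers 12181 matched a symbol, and coordinates are from GENCODE M21 on GRCm38. The members and the gene lists were chosen with earlier results of these data known. Genes with at least 0 log2 CPM in at least 3 libraries were tested (12196, with 8 removed). A group-means model over all 9 libraries was fitted in limma 3.58.1 (R 4.3.3, moderated variances that follow the mean, two-sided, p adjusted by Benjamini-Hochberg), and the steps were tested on simulated data. SE and 95% intervals are limma's moderated values. The text names the 7 members, up to 2 called genes of smallest p per list and comparison, the 5 profiles nearest to Il10 and 2 nearest to each other member, Acly and that marker; other list genes were named after their values were seen. A gene that this rule picks is not reported here. Alternatives were a replicate block, other filters, scalings, variance models, library weights, a stricter threshold and leaving out each library. Raw counts were not used here.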

Additional observations from a re-analysis of the deposited data

How the results depend on the processing

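Of 378 alternative values of the differences of the 7 genes, 369 stayed within the spread between replicates and 9 moved beyond it. All 54 values for Il10 stayed within it. Many of these values could not move beyond it. A difference of means is unchanged by other filters, no mean trend, the replicate block or fitting only the groups compared. Leaving out a library of the group not compared does not change it either. All 9 values that moved did so with centring on 60 ribosomal protein genes. That centring moved the median of all tested genes from -0.06 to 0.23 for LPS against UT, and higher genes then made up 65.9% of the calls in place of 45.9%. For LPS + BMS against LPS they made up 39.9% in place of 45.3%. The difference of Etv3 from UT changed sign with it, from -0.26 to 0.03 for LPS and from -0.23 to 0.02 for LPS + BMS. The number of genes called between LPS + BMS and LPS was 258, and it was 99 with no mean trend, 814 with weights per library and 85 at a threshold of 0.01; leaving out each library gave 62 (without LPS + BMS replicate 3) to 317 (without UT replicate 3), and the cause of these shifts was not tested. Of 16 called list genes in that comparison 8 kept the call without any single library and none reversed. The replicate number as a block gave 208 calls. The numbers were not taken as pairs, since same-numbered libraries correlated at -0.30 to 0.17 in their deviations from the group means and 2 of 9 pairs exceeded 0.1. Depth limits the untreated values of Il10 and Socs3, which lay 2 to 12 steps above the lowest value.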
